A study of Mus musculus with 28 samples.

Results

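Insulin-like growth factor 1 (IGF1), its receptors and the proteins that bind it were followed at the RNA level in the tibialis anterior (TA) muscle of 2 mouse models of centronuclear myopathy, with and without tamoxifen. The genes were chosen by name: *Igf1*, its receptor *Igf1r*, the insulin receptor *Insr*, the receptor substrate *Irs1* and the binding protein genes *Igfbp2* to *Igfbp7*. These 10 genes were present among the 55416 gene identifiers of cohort G and the 55359 of cohort F. Cohort G held *Dnm2* S619L/+ mice, heterozygous for a point mutation of *Dnm2*. Cohort F held *Bin1* mck-/- mice, in which a Cre driven by the muscle creatine kinase promoter removes *Bin1* from muscle. Mice of the C57BL/6N strain were analysed at 8 weeks of age and received placebo or tamoxifen, a selective modulator of the estrogen receptor, in the diet. Cohort G held WT mice on placebo (WT), WT mice on tamoxifen (WT treated), mutant mice on placebo (disease) and mutant mice on tamoxifen (disease treated). Cohort F held WT and disease mice on placebo and disease treated mice, and no WT treated mice. Each of the 7 groups held 4 mice.

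IGF1 is a secreted growth factor that muscle fibers, resident fibroblasts, macrophages, bone cells and above all liver produce under the control of growth hormone. It binds IGF1R and, through IRS1, PI3K, AKT and mTOR, raises protein synthesis and restrains protein breakdown, which is why it is known for muscle growth and repair. IGF-binding proteins hold IGF1 in the circulation or the matrix, and proteases such as HTRA1 and pregnancy-associated plasma protein A release it by cutting them.

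*Igf1*, *Igfbp3* and *Igfbp4* rose together under tamoxifen in both genotypes of cohort G, and *Igfbp6* was higher in disease than in WT mice of both cohorts. The sequences before the starts of these 4 genes are therefore shown. Each is the 250 bases before the RefSeq transcription start in build GRCm38.p6, given 5′ to 3′ on the strand of the gene, with motif matches in capitals. RefSeq windows were found for 9 of the 10 genes, and *Insr* had no entry.
Igf1, chr10:87860861-87861110, strand plus: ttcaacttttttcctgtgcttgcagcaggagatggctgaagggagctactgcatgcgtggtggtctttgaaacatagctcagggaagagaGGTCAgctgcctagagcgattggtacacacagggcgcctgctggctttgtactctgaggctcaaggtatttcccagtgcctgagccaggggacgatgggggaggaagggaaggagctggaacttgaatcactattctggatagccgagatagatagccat
Igfbp3, chr11:7213924-7214173, strand minus: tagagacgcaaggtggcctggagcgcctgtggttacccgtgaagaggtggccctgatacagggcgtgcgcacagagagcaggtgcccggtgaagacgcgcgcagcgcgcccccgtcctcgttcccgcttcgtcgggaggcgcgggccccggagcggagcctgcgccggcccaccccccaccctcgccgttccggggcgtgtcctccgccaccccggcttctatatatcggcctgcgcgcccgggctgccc
Igfbp4, chr11:99040994-99041243, strand plus: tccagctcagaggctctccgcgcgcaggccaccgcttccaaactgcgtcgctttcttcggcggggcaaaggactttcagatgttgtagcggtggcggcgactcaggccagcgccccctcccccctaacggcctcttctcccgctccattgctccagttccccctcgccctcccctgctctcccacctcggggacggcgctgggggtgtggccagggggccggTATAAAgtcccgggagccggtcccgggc
Igfbp6, chr15:102143936-102144185, strand plus: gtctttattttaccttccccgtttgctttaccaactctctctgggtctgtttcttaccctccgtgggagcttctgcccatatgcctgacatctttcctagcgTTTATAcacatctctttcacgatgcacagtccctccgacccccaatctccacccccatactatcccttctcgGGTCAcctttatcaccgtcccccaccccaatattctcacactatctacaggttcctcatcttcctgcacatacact

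Motifs were searched on both strands. They were the TATA box TATAAA, the STAT site TTCNNNGAA, the estrogen response element (GGTCA and TGACC with any 3 bases between them), a single arm of that element, GGTCA, which the whole element contains, the GC box GGGCGG and the AP-1 site TGACTCA. The *Igfbp4* window held a TATA box, at 28 bases before the start on the strand of the gene, and 12.4% of all 32851 RefSeq windows of the same length held one. The *Igfbp6* window also had these letters, on the opposite strand. GGTCA was found once each in the windows of *Igf1* and *Igfbp6* and in 35.2% of all windows. The whole estrogen response element was in none of the 10 windows of these genes and in 0.0639% of all windows. None of these letters occurred in the *Igfbp3* window.

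Counts per gene were scaled with TMM factors to CPM, reads per 1000000 reads on genes. The 8 muscle fiber markers summed to 81916 to 179263 CPM, with none of them at 0 in any group. The depth was 15586333 to 109710886 reads per mouse on genes in cohort G and 24671835 to 35136327 in cohort F. *Bin1*, the gene deleted in cohort F, was at 520.9 to 555.5 CPM in WT and at 36.0 to 62.0 CPM in disease and disease treated mice, whereas the point mutation of *Dnm2* is not visible in counts (61.0 to 64.4 CPM in WT and 61.9 to 72.3 CPM in disease mice of cohort G). Sex was not stated in the labels. *Xist*, which females express, was high (above 10 CPM, with the Y-linked *Ddx3y* below 1 CPM) in all 12 mice of cohort F, but in 2 of 4 WT, 2 of 4 WT treated, 2 of 4 disease and 4 of 4 disease treated mice of cohort G, so that in cohort G the disease treated group held more females than the disease group. Disease treated mouse 4 of cohort G and disease treated mouse 2 of cohort F stood apart from the rest of their groups. The first had bone cell markers and *Igf1* at a low level and the second at a high level. Calls of the 10 genes under tamoxifen in disease mice are given with and without them. These mice were picked by their *Igf1* and marker values, so fits without them are no independent evidence on these genes. Most other calls that involve these mice, among them those of other pathway genes, are given only with them. In all these bulk samples, fewer cells of a type and less RNA per cell cannot be told apart.

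To compare levels between genes, CPM was divided by the exon length of each gene (CPM per kb). In WT mice of cohort G, *Igfbp7*, whose product binds IGF1 weakly and lies in vessel walls, was highest with 93.1 ± 16.8 CPM per kb (SD, n = 4 here and below). *Igfbp5*, whose product differentiating muscle cells secrete, followed with 87.6 ± 34.7 CPM per kb. *Igfbp6* was at 19.0 ± 7.28 CPM per kb, *Irs1* at 10.9 ± 5.58, *Igfbp4* at 8.60 ± 1.14, *Insr* at 7.08 ± 0.410 and *Igfbp3* at 6.36 ± 0.685. *Igf1* itself was low with 1.89 ± 0.368 CPM per kb, and *Igf1r* lower with 1.18 ± 0.167. *Igfbp2* was nearly absent, with 21 reads over the 4 WT mice. The values of *Igfbp7* and *Igfbp5* overlapped, as did those of *Irs1* and *Igfbp4* and of *Insr* and *Igfbp3*, whereas *Igfbp4* lay above *Insr*, and *Igf1* above *Igf1r*, in every WT mouse of this cohort. In WT treated mice *Igf1* reached 18.8 ± 5.84 CPM per kb, the level of *Igfbp3* (18.9 ± 3.54).

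**Figure D1:**
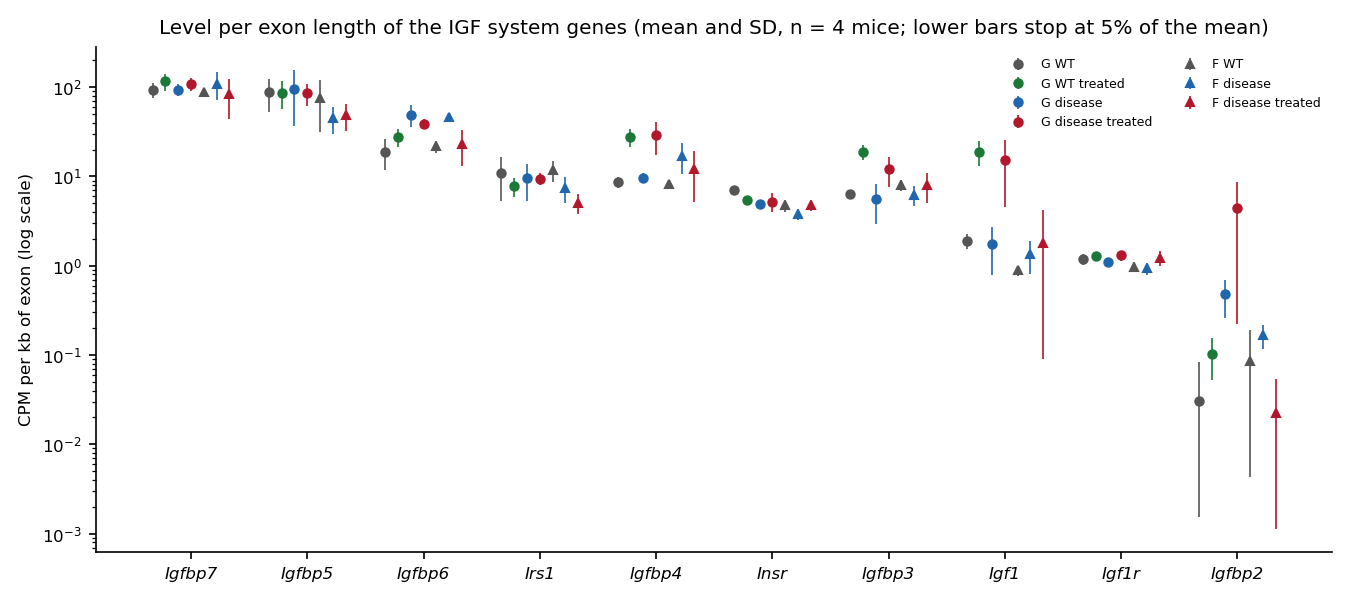
Level of the 10 genes per kb of exon (log scale) in the 7 groups, as mean and SD of 4 mice, ordered by the mean in WT mice of cohort G; circles are cohort G and triangles cohort F. *Igfbp7* and *Igfbp5* were highest in every group but disease mice of cohort F, where *Igfbp6* (46.8 CPM per kb) lay beside *Igfbp5* (45.1). *Igf1* rose from 1.89 to 18.8 CPM per kb in WT treated mice of cohort G. *Igfbp2* was the lowest of the 10 genes in every group but disease treated mice of cohort G.

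The ligand was examined first. *Igf1* (ENSMUSG00000020053) was at 18.7, 23.8, 15.3 and 17.1 CPM in WT mice 1 to 4 of cohort G and at 10.9, 15.4, 31.6 and 11.8 CPM in disease mice. The WT values lay inside the range of the disease mice, and the difference did not pass the test (log2 fold change −0.11, SE 0.57, adjusted p = 0.912 by edgeR's quasi-likelihood test with Benjamini-Hochberg adjustment over all genes, as for all adjusted p below). In WT treated mice *Igf1* was at 205, 255, 167 and 118 CPM, so that every WT treated mouse lay above every WT mouse. This was a rise by 3.31 on the log2 scale (SE 0.61, adjusted p = 0.00150), or 9.89-fold. Among the mice with high *Xist* only this rise did not pass the test (adjusted p = 0.0505). In disease treated mice *Igf1* was at 125, 256, 205 and 14.3 CPM. Mice 1 to 3 lay far above all disease mice, whereas mouse 4 lay among them. The rise over disease mice was 3.10 (SE 0.61, adjusted p = 0.00824), and 3.49 without mouse 4 (adjusted p = 2.39e-05). Over all single mice left out it ran from 2.72 to 3.56 (adjusted p up to 0.0355). Fitted with only the disease and disease treated mice, it was 3.15 and no longer passed the test (adjusted p = 0.0935). It was 3.23 with *Xist* as a covariate (adjusted p = 0.0330), and 3.73 among the mice with high *Xist* only (adjusted p = 0.121).

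In cohort F *Igf1* was at 8.02, 7.69, 9.98 and 9.58 CPM in WT mice 5 to 8 and at 8.04, 10.1, 15.1 and 20.04 CPM in disease mice. Disease treated mice had 7.75, 52.9, 6.82 and 3.69 CPM, that is, mouse 2 lay above all other mice of the cohort and the other 3 below all disease mice. The log2 fold change under tamoxifen was 0.42 (SE 0.74, adjusted p = 0.788). Without mouse 2 its sign turned and it passed the test (log2 fold change −1.13, adjusted p = 0.0399). The tamoxifen effect in disease mice was larger by 2.73 on the log2 scale in cohort G than in cohort F, which missed the threshold (SE 0.97, adjusted p = 0.0993), but passed it without disease treated mouse 2 of cohort F (4.26, adjusted p = 0.00368), without disease treated mouse 4 of cohort G (3.11, adjusted p = 0.0245) and by DESeq2. Over all single mice left out this difference ran from 2.34 to 4.26 (adjusted p up to 0.212). Cohorts also differed in the amount of RNA and the fragmentation time, and cohort and library protocol cannot be told apart.

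**Figure D2:**
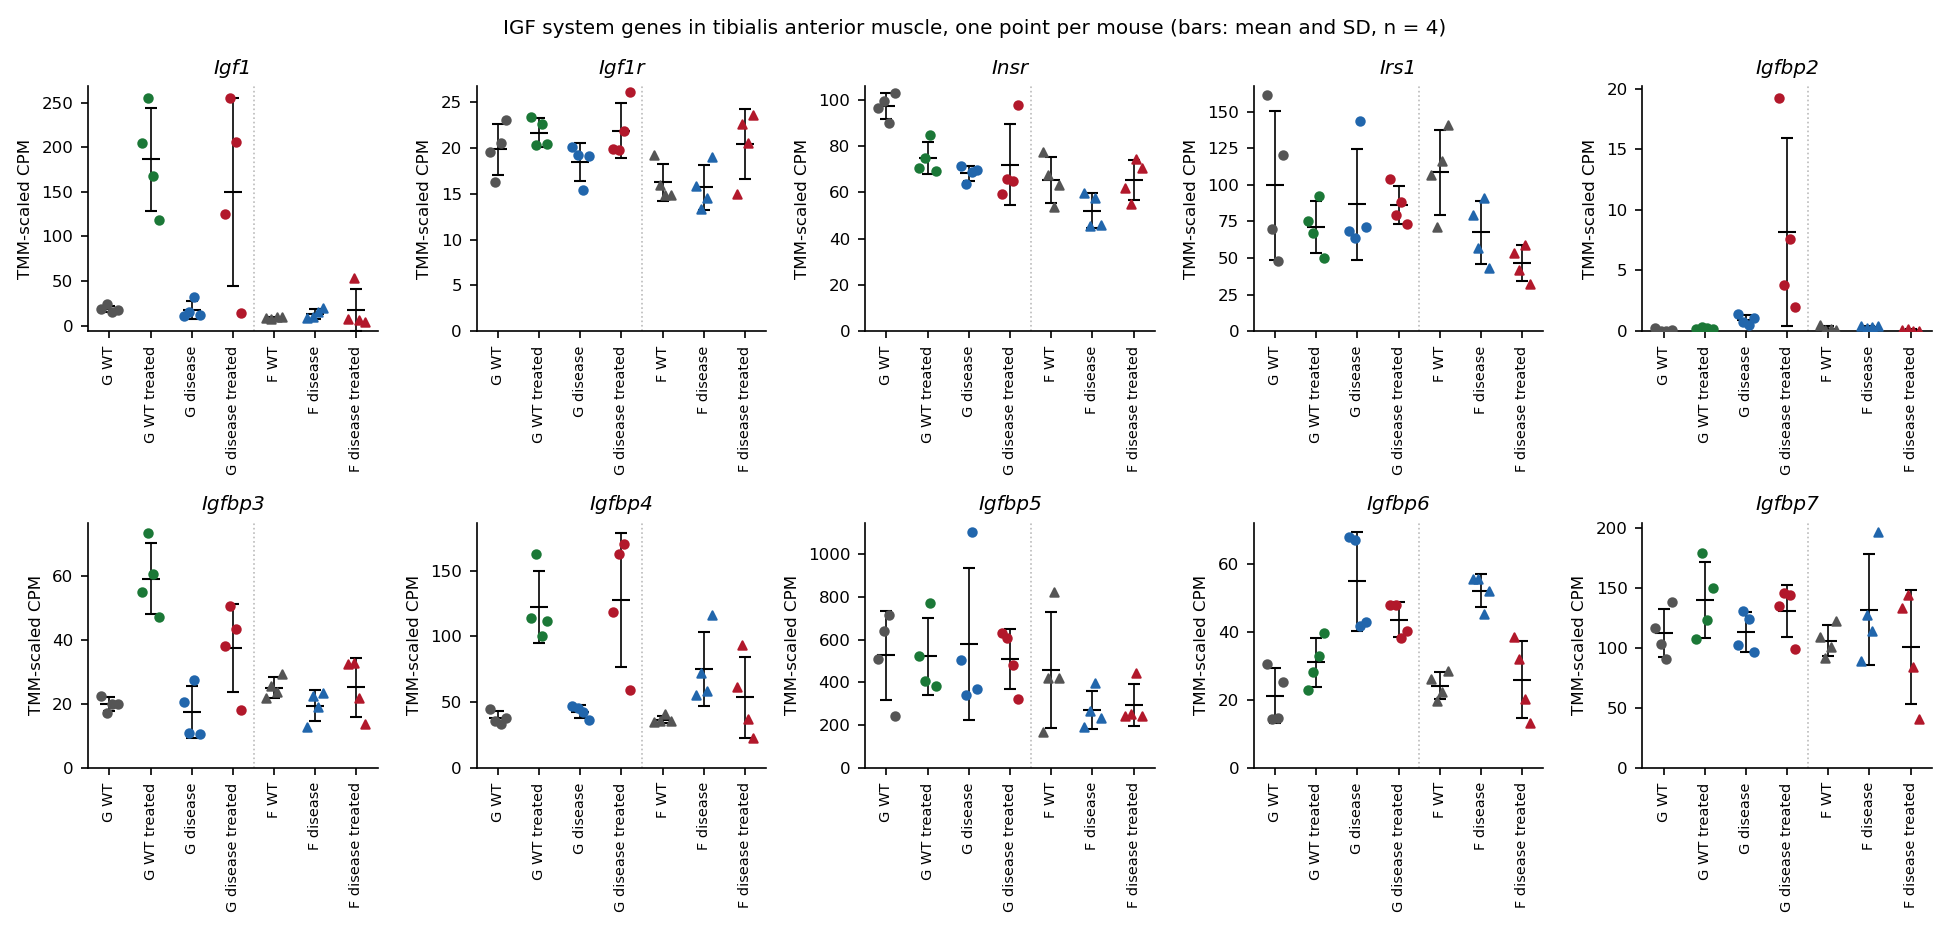
CPM of the 10 genes, one point per mouse, in the 4 groups of cohort G (circles) and the 3 groups of cohort F (triangles), with mean and SD (n = 4). *Igf1* was at 118 to 255 CPM in WT treated mice of cohort G against 15.3 to 23.8 CPM in WT mice, and disease treated mouse 4 stayed at 14.3 CPM.

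Markers of bone cells were high in the same treated mice as *Igf1*. The summed level of 10 osteoblast and osteocyte markers (*Ibsp*, *Bglap*, *Bglap2*, *Sp7*, *Dmp1*, *Mepe*, *Phex*, *Alpl*, *Mmp13* and *Tnn*) was 29.8 to 58.1 CPM in WT and 11.8 to 19.9 CPM in disease mice of cohort G. It was 2410, 2788, 1215 and 1374 CPM in WT treated mice 1 to 4, and 801, 1754, 2020 and 70.0 CPM in disease treated mice 1 to 4, so that disease treated mouse 4 was low in the markers as in *Igf1*. In cohort F it was 18.3 to 47.2 CPM in every mouse but disease treated mouse 2, which had 756 CPM. Of the 9 markers tested in cohort G, 8 rose under tamoxifen in WT mice and 8 in disease mice, and of 5 osteoclast markers 5 and 3 rose. Markers of other cells rose too. Of 7 macrophage markers 5 rose in WT and 0 in disease mice, and of 5 tendon markers 5 and 0. Of 8 fibroblast markers 6 rose in WT and 4 in disease mice, and of 4 cartilage markers tested 3 and 1. *Ibsp*, which encodes bone sialoprotein, was at 172 to 651 CPM in WT treated mice, at 87.0, 221.5, 294 and 2.41 CPM in disease treated mice of cohort G, and at 186 CPM in disease treated mouse 2 of cohort F against at most 0.151 CPM in the other mice of that cohort. The mouse with low *Igf1* in cohort G thus had little *Ibsp*, and the mouse with high *Igf1* in cohort F had much of it. Summed over 8 fibroblast markers, which include the collagen genes that bone cells share, the level was 1161 to 1675 CPM in WT, 13654 to 27058 CPM in WT treated, 2206 to 3017 CPM in disease, and 9972, 16574, 20715 and 2666 CPM in disease treated mice of cohort G. *Pdgfra*, a receptor that marks muscle fibroblasts, was at 14.8 to 30.6 CPM in WT and at 44.0 to 64.5 CPM in WT treated mice of cohort G. Disease mice had 52.9, 33.9, 23.5 and 35.1 CPM of it and disease treated mice 36.2, 59.1, 52.4 and 24.9 CPM, which overlapped. It was at 20.9 CPM in disease treated mouse 2 of cohort F, inside the range of 20.6 to 40.7 CPM of the disease mice of that cohort. Summed over the 8 fibroblast markers, however, that mouse had 8786 CPM, the highest of cohort F, where the other mice had 361 to 5633 CPM. The part of bone cells, fibroblasts, macrophages, cartilage cells and tendon cells in the rise of *Igf1*, *Igfbp3* and *Igfbp4* was not tested.

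**Figure D3:**
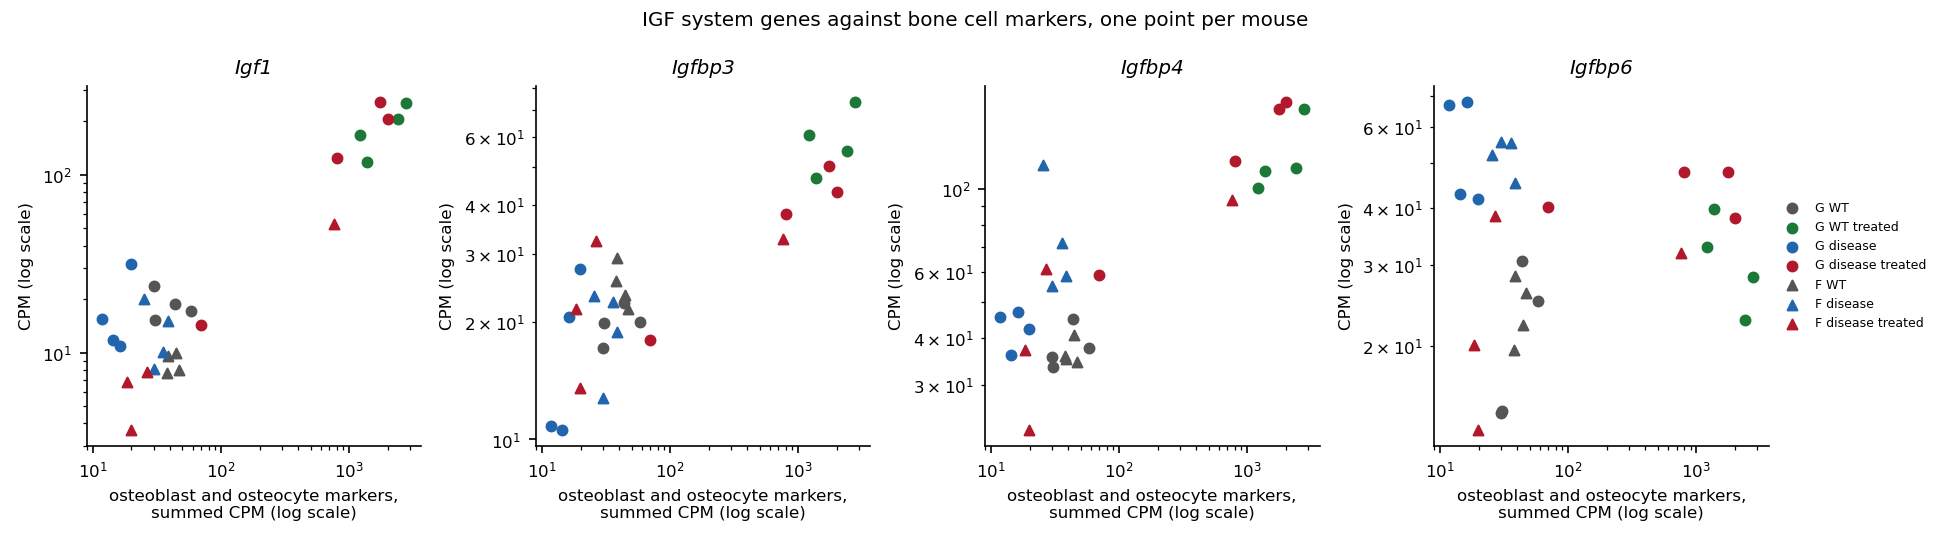
CPM of *Igf1*, *Igfbp3*, *Igfbp4* and *Igfbp6* against the summed CPM of 10 osteoblast and osteocyte markers, one point per mouse, on log scales; circles are cohort G and triangles cohort F. The WT treated mice and disease treated mice 1 to 3 of cohort G lie at the upper right for *Igf1* with disease treated mouse 2 of cohort F, and the 5 highest *Igfbp6* values were in disease mice, whose marker sums were at most 38.6 CPM.

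*Igf1r*, the receptor of the ligand, did not pass the test in any comparison. It was at 16.3 to 23.0 CPM in WT, 20.3 to 23.4 in WT treated, 15.4 to 20.1 in disease and 19.8 to 26.1 CPM in disease treated mice of cohort G, with overlapping groups in every comparison. Its log2 fold changes lay between −0.10 in disease and 0.24 under tamoxifen in disease mice (SE 0.12 each, adjusted p = 0.581 and 0.228). In cohort F the groups also overlapped (13.3 to 23.6 CPM over all mice), with 0.38 under tamoxifen (SE 0.15, adjusted p = 0.178).

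*Insr* fell in the *Dnm2* model. WT mice of cohort G had 96.6, 99.6, 89.8 and 103 CPM and disease mice 71.2, 63.5, 68.6 and 69.6 CPM, with every disease mouse below every WT mouse. The log2 fold change was −0.51 (SE 0.13, adjusted p = 0.0113), and −0.49 among the mice with high *Xist* only, where it did not pass (adjusted p = 0.191). WT treated mice had 70.7, 74.6, 84.6 and 69.3 CPM, also below all WT mice (log2 fold change −0.38, SE 0.13, adjusted p = 0.0380), a call that was lost in 11 of 24 other settings (adjusted p up to 0.165). The 8 muscle fiber markers summed to 121267 to 148649 CPM in WT, 94272 to 132276 in disease and 93162 to 107605 CPM in WT treated mice. Disease treated mice had 59.2, 65.8, 64.9 and 97.7 CPM. Here mouse 4, the mouse with low bone markers, was at the WT level, and the group did not differ from disease mice beyond its spread (log2 fold change 0.08, SE 0.13, adjusted p = 0.757, and −0.11 with an adjusted p of 0.447 without mouse 4). Mouse 4 also had the highest fiber marker sum of its group (133557 CPM, where the others had 81916 to 99293 CPM). The part of muscle fiber content in the level of *Insr* was not tested. In cohort F *Insr* was at 53.8 to 77.6 CPM in WT, 45.4 to 59.8 in disease and 55.0 to 74.3 CPM in disease treated mice, and these overlapping groups gave −0.33 in disease (SE 0.14, adjusted p = 0.188).

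*Irs1*, the adaptor that passes the receptor signal to PI3K, spread widely between mice of 1 group. In cohort G it was at 161, 69.9, 47.7 and 121 CPM in WT and at 68.3, 63.9, 143 and 71.3 CPM in disease mice, and all groups overlapped. The disease difference was −0.21 (adjusted p = 0.690). Among the mice with high *Xist* only, *Irs1* was lower than in WT mice by the test in disease (log2 fold change −0.997, adjusted p = 0.0159), WT treated (−0.97, adjusted p = 0.0261) and disease treated mice (−0.67, adjusted p = 0.0396), none of which passed with all mice. In cohort F the values were 106, 71.0, 116 and 141 CPM in WT, 79.5, 56.7, 90.7 and 43.1 CPM in disease and 53.5, 41.6, 59.1 and 32.0 CPM in disease treated mice. Disease treated mice thus lay below all WT mice, by 1.22 on the log2 scale, which missed the threshold (log2 fold change −1.22, SE 0.27, adjusted p = 0.0647). It passed with DESeq2, with only the 2 groups in the fit and without disease mouse 3 or 4. An antisense gene, *Gm9747*, overlaps 2822 bases of the *Irs1* exons in the annotation used for exon lengths, and the strand setting of the counting was not given.

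**Figure D4:**
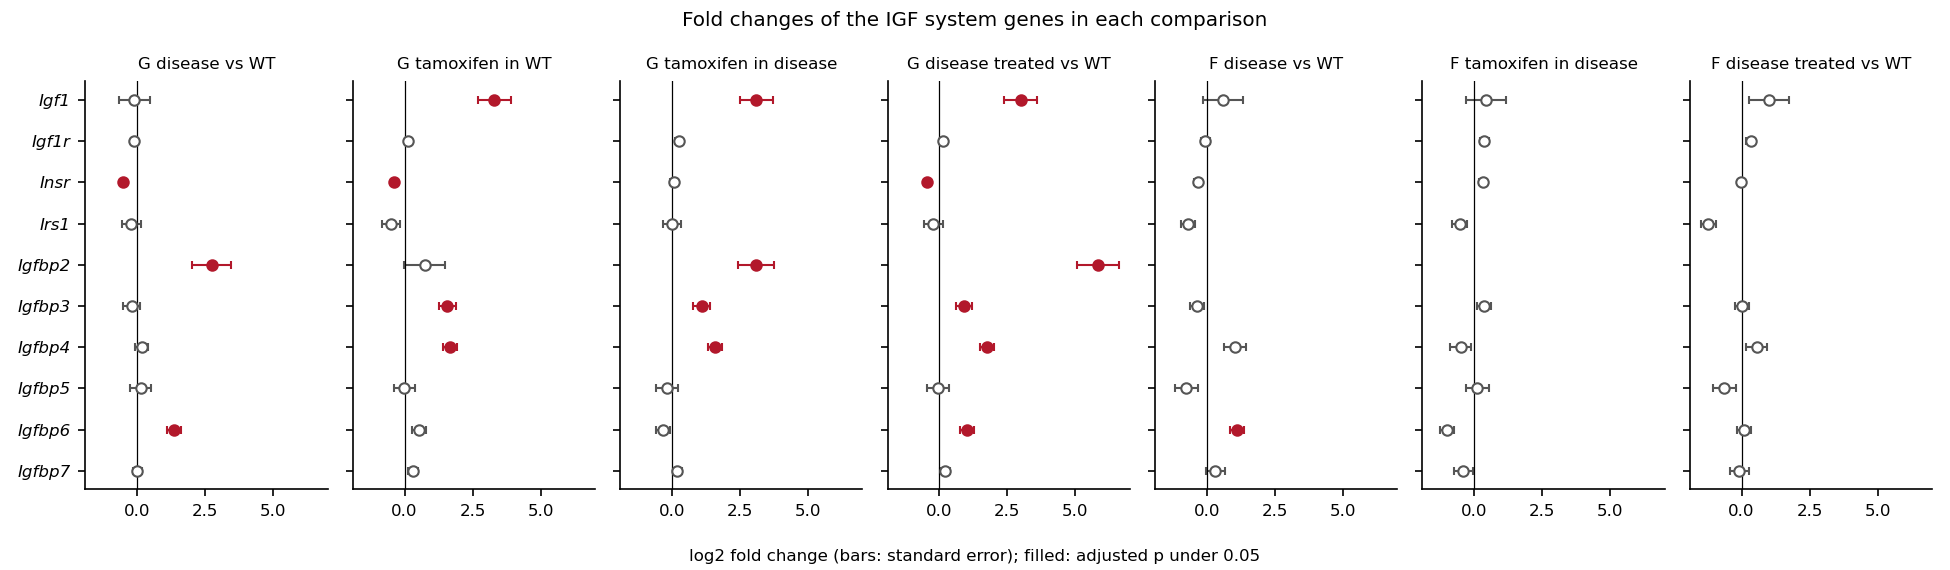
Log2 fold change and standard error of the 10 genes in 4 comparisons of cohort G and 3 of cohort F; filled points passed an adjusted p of 0.05 by edgeR. *Igfbp2* was not tested in cohort F. The rise of *Igf1* under tamoxifen was 3.31 in WT and 3.10 in disease mice of cohort G, and *Igfbp6* was the only one of the 10 to pass in the disease comparison of both cohorts.

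Among the binding proteins, *Igfbp6*, which prefers IGF2 over IGF1, rose in disease. It was at 30.6, 14.3, 14.5 and 25.1 CPM in WT and at 67.7, 67.0, 41.7 and 42.8 CPM in disease mice of cohort G. The groups were apart, and the rise of 1.36 (SE 0.25, adjusted p = 0.00182), or 2.57-fold, passed the test in all 24 other settings. In cohort F it was at 26.1, 19.6, 22.2 and 28.5 CPM in WT and at 55.4, 55.4, 45.2 and 52.1 CPM in disease mice, again apart. This rise of 1.11 (SE 0.26, adjusted p = 0.0476) was lost in 9 of 18 other settings, with adjusted p up to 0.148. The disease effect did not pass a test of its difference between cohorts (G minus F 0.25 on the log2 scale, SE 0.37, adjusted p = 0.819).

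Under tamoxifen *Igfbp6* took 38.4, 31.9, 20.1 and 13.2 CPM in disease treated mice of cohort F, each below every disease mouse and overlapping WT mice. The difference missed the threshold (log2 fold change −1.004, SE 0.26, adjusted p = 0.0592). It passed by DESeq2 and without disease treated mouse 1 or 2 (−1.12 without mouse 2, adjusted p = 0.0360). In cohort G disease treated mice had 47.8, 47.9, 38.0 and 40.2 CPM, overlapping the disease mice (log2 fold change −0.33, SE 0.25, adjusted p = 0.427) and all above the WT mice (1.03, SE 0.25, adjusted p = 0.00737, and 1.06 with an adjusted p of 0.00774 without mouse 4). The tamoxifen effect differed between the cohorts by 0.71 (SE 0.37, adjusted p = 0.240).

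*Igfbp4*, which sequesters IGF1 until pregnancy-associated plasma protein A cuts it, rose with *Igf1*. WT mice of cohort G had 45.0, 35.7, 33.4 and 37.8 CPM, WT treated mice 114, 163, 101 and 112 CPM. Disease mice had 47.1, 45.5, 42.4 and 36.0 CPM, and disease treated mice 119, 163, 170 and 59.1 CPM. Every treated mouse was above every placebo mouse of its genotype, with mouse 4 again the lowest of the disease treated mice. The log2 fold change was 1.68 in WT (SE 0.25, adjusted p = 4.79e-04) and 1.58 in disease mice (SE 0.25, adjusted p = 0.00339). Without disease treated mouse 4 the second value was 1.82 (adjusted p = 5.26e-06). It did not pass with only the groups compared (adjusted p = 0.0656) or only mice with high *Xist* (adjusted p = 0.102).

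In cohort F *Igfbp4* was at 34.6, 35.8, 40.9 and 35.3 CPM in WT and at 55.0, 71.8, 58.5 and 116 CPM in disease mice. The groups were apart, but the difference of 1.04 missed the threshold (SE 0.39, adjusted p = 0.167). Disease treated mice had 61.3, 93.4, 37.1 and 22.8 CPM, overlapping both groups (log2 fold change against disease mice −0.49, adjusted p = 0.507, and −0.90, adjusted p = 0.113, without mouse 2). The tamoxifen effect in disease mice was larger in cohort G by 2.11 on the log2 scale (SE 0.46, adjusted p = 0.0337), a call lost in 9 of 31 other settings (adjusted p up to 0.0982). It was 2.35 without disease treated mouse 4 of cohort G (adjusted p = 0.00501) and 2.51 without disease treated mouse 2 of cohort F (adjusted p = 0.00176).

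*Igfbp3*, the main carrier of IGF1 in the circulation, was at 22.5, 17.2, 19.9 and 20.02 CPM in WT and at 55.0, 73.5, 60.6 and 47.1 CPM in WT treated mice of cohort G. These groups were apart, with a rise of 1.56 (SE 0.31, adjusted p = 0.00241). This rise did not pass among the mice with high *Xist* only (adjusted p = 0.0521). Disease mice had 20.7, 10.8, 27.5 and 10.6 CPM and disease treated mice 38.0, 50.5, 43.2 and 18.0 CPM, where mouse 4 fell inside the disease range. The rise of 1.1 (SE 0.31, adjusted p = 0.0429), or 1.33 without mouse 4 (adjusted p = 0.00386), was lost in 16 of 24 other settings, among them the fit with only the groups compared (adjusted p = 0.168). In cohort F *Igfbp3* was at 21.7 to 29.3 CPM in WT, 12.7 to 23.4 in disease and 13.6 to 32.8 CPM in disease treated mice, without a call.

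*Igfbp2*, a carrier that fetal tissues and tumors express strongly, was low but stepped up with the *Dnm2* mutation and again with tamoxifen. It was at 0.203, 0, 0 and 0.0223 CPM in WT (20 of the 21 reads in mouse 1) and at 0.121, 0.300, 0.235 and 0.103 CPM in WT treated mice, which overlapped. Disease mice had 1.35, 0.671, 0.452 and 1.07 CPM, with 111 reads in all, and disease treated mice had 19.3, 3.74, 7.62 and 1.97 CPM, with 977 reads. The disease, disease treated and WT mice formed 3 groups without overlap. The log2 fold change was 2.74 in disease (SE 0.72, adjusted p = 0.0152), 3.09 under tamoxifen in disease mice (SE 0.66, adjusted p = 0.0129) and 5.08 between disease treated and WT treated mice (SE 0.75, adjusted p = 0.00212). These sizes rest on a prior count of 2 and few WT reads. *Igfbp2* passed the filter on low counts through the disease and disease treated mice, where it was high, so these calls are not independent of the filter. Without disease treated mouse 4 the last pair of values was 3.41 (adjusted p = 0.00116) and 5.41 (adjusted p = 5.68e-04). Over all single mice left out they ran from 2.22 to 3.41 (adjusted p up to 0.0437) and from 4.21 to 5.41 (adjusted p up to 0.0145). The disease call was lost without a filter on low counts (adjusted p = 0.0506) and among the mice with high *Xist* only (adjusted p = 0.160), and the rise under tamoxifen was lost with only the groups compared (adjusted p = 0.0846), only mice with high *Xist* (adjusted p = 0.198) and *Xist* as a covariate (adjusted p = 0.0673).

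*Igfbp2* did not follow the bone markers across treated mice as *Igf1* did. Disease treated mouse 1 had the most *Igfbp2* and the third highest marker sum of its group. Mouse 4 of that group was lowest in both, with 1.97 CPM of *Igfbp2* and a sum of 70.0 CPM. WT treated mice, with sums of 1215 to 2788 CPM, had 24 *Igfbp2* reads in all. In cohort F it had 22, 42 and 5 reads in WT, disease and disease treated mice and was not tested. The tamoxifen effect in disease mice was larger in cohort G by 4.95 on the log2 scale (SE 1.03, adjusted p = 0.0236), a call lost in 8 of 31 other settings (5.27 without disease treated mouse 4 of cohort G, adjusted p = 0.00501, and 5.46 without disease treated mouse 2 of cohort F, adjusted p = 0.00456). This call too is not independent of the filter on low counts, which *Igfbp2* passed through cohort G.

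*Igfbp5* and *Igfbp7*, the 2 most abundant genes of the set per length in WT mice, did not pass the test in any comparison. *Igfbp5* was at 507, 641, 715 and 242 CPM in WT and at 502, 341, 1102 and 369 CPM in disease mice of cohort G, a spread within groups that covered the other groups. Its log2 fold changes were −0.01 and −0.18 under tamoxifen in WT and disease mice (SE 0.39 each, adjusted p = 0.983 and 0.818). In cohort F the disease group gave −0.76 (SE 0.42, adjusted p = 0.350). *Igfbp7* was at 91.2 to 139 CPM in WT, 108 to 179 in WT treated, 96.9 to 131 in disease and 98.8 to 146 CPM in disease treated mice of cohort G, with log2 fold changes from 0.01 to 0.31 against WT. *Polr2b*, on the opposite strand, shares 85 exon bases with *Igfbp7*.

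Counted over the 10 genes, 3 passed the test between disease and WT mice of cohort G (2 higher, *Igfbp2* and *Igfbp6*, and *Insr* lower), where 21.9% of the 15439 genes tested passed and 12.1% passed as higher. For the same 3 the groups did not overlap, as for 24.9% of all genes. Tamoxifen in WT mice gave 4 (3 higher, *Insr* lower) against 27.7% of all genes, or 15.8% higher, and the groups did not overlap for these 4 (31.4% of all genes). Tamoxifen in disease mice gave 4, all higher, against 8.27% of all genes and 5.22% higher, and the groups did not overlap for *Igfbp2* and *Igfbp4* (10.4% of all genes). Between disease treated and WT mice 6 passed, against 28.9%, and 3 did not overlap, against 26.1%. Between disease treated and WT treated mice *Igfbp2* alone passed, against 2.7%, and it alone did not overlap, against 10.7%. In all these counts *Igfbp2* was kept by the filter on low counts through the mice where it was high, so its part in them is not independent of the filter. The tamoxifen effect did not differ between genotypes for any of the 10 in edgeR (40 genes, 0.259%, passed), with *Insr* and *Igfbp6* at an unadjusted p under 0.05 and 0 calls by DESeq2. The median log2 fold change of the 10 genes was 0.43 under tamoxifen in WT and 0.22 in disease mice, beside −0.04 and −0.03 over all genes tested.

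In cohort F 9 of the 10 genes passed the filter on low counts. *Igfbp6* alone passed between disease and WT mice, where 2.61% of 14841 genes passed, and *Igfbp4* and *Igfbp6* did not overlap, as 16.5% of all genes. Under tamoxifen in disease mice none passed (3.13% of all genes did), 3 had an unadjusted p under 0.05, DESeq2 called 1, and *Igfbp6* did not overlap (9.8% of all genes). Between disease treated and WT mice none passed (0.849% of all genes), 2 had an unadjusted p under 0.05, DESeq2 called 1, and *Irs1* did not overlap (7.96% of all genes). The disease effect differed between cohorts for none of the 10 (0.312% of 16036 genes, 0 at an unadjusted p under 0.05 and 0 by DESeq2), and the tamoxifen effect in disease mice for *Igfbp2* and *Igfbp4* (1.71%). *Igfbp2* was kept in that fit through the cohort G mice where it was high. The within-cohort comparisons share WT or disease mice and are not independent of each other.

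Of 47 other genes of the pathway, 44 were tested in cohort G. Between disease and WT mice 2 rose and 9 fell, that is, 11 of 44 beside 21.9% of all genes tested. This count was 8 to 13 on leaving out 1 mouse and 3 among the mice with high *Xist* only. Those that fell included the growth hormone receptor *Ghr* (log2 fold change −0.72, SE 0.13, adjusted p = 0.00152) and its kinase *Jak2* (−0.96, SE 0.15, adjusted p = 4.73e-04), the kinase *Mtor* (−0.51, SE 0.11, adjusted p = 0.00397) and *Slc2a4*, the insulin-responsive glucose transporter (−0.51, SE 0.10, adjusted p = 0.00288). *Stat5a*, a transcription factor downstream of the growth hormone receptor, rose (0.59, SE 0.13, adjusted p = 0.00480). In cohort F *Jak2* also fell in disease (−0.69, SE 0.14, adjusted p = 0.0201), *Grb14*, an inhibitory receptor adaptor, rose (0.76, SE 0.16, adjusted p = 0.0272), and the other 42 tested genes did not pass, beside 2.61% of all genes that did. The count of 2 ran from 0 to 5 over the other settings.

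Under tamoxifen 4 of the 44 rose and 6 fell in WT mice of cohort G, and 6 rose and 1 fell in disease mice. These were 10 of 44 beside 27.7% of all genes, and 7 of 44 beside 8.27%. The first count was 6 to 11 over the other settings. The second changed more, with 1 to 8 on leaving out 1 mouse, 2 without a filter on low counts, and 0 with only the groups compared or only mice with high *Xist*. *Htra1*, a protease that cuts IGF-binding proteins, rose in both, by 3.03 (SE 0.42, adjusted p = 3.00e-04) and 2.64 (SE 0.41, adjusted p = 0.00304). In WT mice the adaptor *Shc1* (0.83, SE 0.14, adjusted p = 7.97e-04) and the PI3K regulatory subunit *Pik3r1* (0.89, SE 0.22, adjusted p = 0.00723) also rose. *Jak2* (−0.75, SE 0.15, adjusted p = 0.00201), *Slc2a4* (−0.45, SE 0.10, adjusted p = 0.00436) and *Grb14* (−0.63, SE 0.17, adjusted p = 0.0147) fell there. In disease mice *Shc1* (0.50, SE 0.14, adjusted p = 0.0393), the inhibitory adaptor *Grb10* (1.07, SE 0.26, adjusted p = 0.0218) and *Stc1*, an inhibitor of pregnancy-associated plasma protein A (1.32, SE 0.36, adjusted p = 0.0373), rose, and the PI3K catalytic subunit *Pik3cb* fell (−0.36, SE 0.10, adjusted p = 0.0338). *Igf2*, the second ligand of IGF1R, rose in disease mice from 0.756 ± 0.403 to 2.46 ± 0.443 CPM (1.58, SE 0.46, adjusted p = 0.0440). In disease mice of cohort F *Grb14* fell by 0.88 on the log2 scale (adjusted p = 0.0110) and *Eif4ebp1*, a translation repressor under mTOR, rose by 0.92 (SE 0.15, adjusted p = 0.00588).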

How the data were processed

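TA muscle RNA of 28 mice was sequenced from strand-specific libraries of polyadenylated RNA, with 300 ng input and 2 min fragmentation in cohort G and 350 ng and 8 min in cohort F. The authors deposited raw read counts per Ensembl gene, without normalization. The submitters' processing notes name bcl2fastq 2.20.0.422, cutadapt 1.10, Bowtie 1.2.2, STAR 2.5.3, HTSeq 0.6.1p1 and the build mm39, without their roles. In cohort F 4 lines that are not genes, with 22.0% to 30.8% of the counts per mouse, were left out. Gene symbols and exon lengths came from GENCODE M21, which matched 52083 identifiers in each table, and upstream sequences from RefSeq on GRCm38.p6. These coordinates were not joined to the counts.

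Within each cohort, genes were filtered with filterByExpr, scaled by TMM and tested with the quasi-likelihood test of edgeR 4.0.16 in R 4.3.3, with all mice of the cohort in 1 fit and Benjamini-Hochberg adjustment over all genes tested. Genes with an adjusted p under 0.05 were counted as changed. Differences between cohorts came from a fit of all 28 mice. A prior count of 2 entered the fold changes. The standard error is the fold change over the square root of F. The procedure was tested on simulated data. The 10 genes, the pathway list and the marker lists were chosen with earlier results of these data known. All 10 genes are described in each comparison, and other pathway genes are counted, with at most 6 called genes of the smallest p named per comparison, apart from 1 that is not reported here. Genes of similar pattern were those with a mean log2 CPM above 1, ranked by the smaller Pearson r of the 2 cohorts.

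Alternatives were DESeq2 1.42.0, RLE factors, no filter on low counts, the study's filter (more than 10 reads in 90% of the mice), only the groups compared, *Xist* as a covariate, the replicate number as a block and leaving out each mouse. The fit of cohort G mice with more than 10 CPM of *Xist* and less than 1 CPM of the Y-linked *Ddx3y* was added after the data were seen. Replicate numbers did not pair the mice, since correlations of deviations from the group means ran from −0.431 to 0.481 between same-numbered mice in cohort G and from −0.262 to 0.238 in cohort F. No 2 replicates agreed within sampling noise.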

Additional observations from a re-analysis of the deposited data

Results flagged for a closer look

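Within single groups, 4 of the 70 sets of 4 mice (10 genes in 7 groups) held a mouse whose gap to the next mouse exceeded Dixon's 95% critical value, and chance gives about 1 in 20. Disease treated mouse 2 of cohort F had 52.9 CPM of *Igf1* where the other 3 had 3.69 to 7.75 CPM. Disease mouse 3 of cohort G had 143 CPM of *Irs1* where the others had 63.9 to 71.3 CPM. WT mouse 1 of cohort G had 0.203 CPM of *Igfbp2* where the others had 0 to 0.0223 CPM, and it was also the most deeply sequenced mouse, with 109710886 reads. Disease treated mouse 3 of cohort F had 441 CPM of *Igfbp5* where the others had 241 to 250.1 CPM.

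The tamoxifen effect in disease mice differed between the 2 models for 2 genes. It was larger in cohort G by 2.11 on the log2 scale for *Igfbp4*, which rose by 1.58 there and had −0.49 in cohort F. For *Igfbp2* the difference was 4.95, and cohort F held only 42 reads in disease and 5 in disease treated mice. It passed the filter on low counts through cohort G, where it was high. Bone cell markers differed between the same treated groups, and their part was not tested.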

How the results depend on the processing

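The number of the 10 genes that passed the test varied with the setting, and the larger changes were as follows. With only the groups compared, tamoxifen in disease mice of cohort G gave 0 in place of 4, disease in cohort F 2 in place of 1 (with *Igfbp4*), and disease treated against WT in cohort F 1 in place of 0 (*Irs1*). With *Xist* as a covariate, tamoxifen in disease mice of cohort G gave 2 and disease in cohort F 0. Among the mice of cohort G with high *Xist* only, tamoxifen gave 2 in WT and 0 in disease mice, and disease treated against WT gave 3. The 2 in WT mice were *Igfbp4* and *Irs1*, which was not called with all mice, whereas *Igf1*, *Igfbp3* and *Insr* were lost. Without a filter on low counts, disease in cohort F gave 0 and the tamoxifen difference between cohorts 0 in place of 2. With the study's filter, which removed *Igfbp2*, disease treated against WT treated in cohort G gave 0 in place of 1. The other counts of cohort G that hold *Igfbp2* lost it as well, and *Insr* was lost under tamoxifen in WT mice. DESeq2 gave 1 in place of 0 both for tamoxifen (*Igfbp6*) and for disease treated against WT (*Irs1*) in cohort F. Leaving out 1 mouse gave 0 to 1 for disease, 0 to 2 for tamoxifen and 0 to 1 for disease treated against WT in cohort F. In cohort G it gave 3 for disease, 3 to 4 for tamoxifen in WT, 3 to 4 in disease mice, 4 to 6 for disease treated against WT and 1 against WT treated. For the tamoxifen difference between cohorts it gave 0 to 3, with 0 for example without disease mouse 4 of cohort F, and for the interaction and the disease difference 0. *Igf1* under tamoxifen in cohort F turned from 0.42 to −1.13 (adjusted p = 0.0399) without disease treated mouse 2 (−1.13 to 0.76 over all single mice left out), and the genes called rose from 464 to 1253. The number of all genes called ran from 30 to 2562 for tamoxifen in disease mice of cohort G, from 18 to 1458 for disease in cohort F and from 6 to 2195 for the tamoxifen difference between cohorts. The replicate block, with numbers that do not pair the mice, left the counts in cohort G at 3, 3 and 4 for disease, tamoxifen in WT and tamoxifen in disease mice, lost *Insr* under tamoxifen in WT mice, and changed no other call among 69 values. The causes of these changes were not tested. RLE factors changed no call of the 10 genes in any of 107 values. Depth limits *Igfbp2*, which had at most 42 reads in any group of cohort F.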

Other observations

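Genes whose pattern was most like that of each gene were sought among 11375 genes over the 16 mice of cohort G and the 12 mice of cohort F, as a description with no test. For *Igf1* these were *Lrrc17* (Pearson r = 0.963 in cohort G and 0.952 in cohort F), *Mmp14*, a membrane metalloprotease (0.954 and 0.948), and *Cnn2*, a calponin (0.956 and 0.942). The mice fall into separate sets for *Igf1*, with low and high levels, and the coefficients rest on these sets and, in cohort F, on disease treated mouse 2. *Igfbp4* was most like *Col3a1*, a fibrillar collagen gene of the fibroblast list (0.972 and 0.974), *Igfbp3* like *Adamts9*, a matrix protease (0.770 and 0.856), and *Igfbp6* like *Entpd2*, an ectonucleotidase (0.914 and 0.924). *Insr* was most like *Usp47*, a deubiquitinase (0.866 and 0.899), *Irs1* like *Relt* (0.814 and 0.883), *Igf1r* like *Spsb1* (0.705 and 0.693), *Igfbp2* like *Micall1* (0.823 and 0.787), and *Igfbp7* like *Gnai2*, a G protein subunit (0.866 and 0.870). *Igfbp2* had at most 16 reads in any mouse of cohort F, so its coefficient there rests on near-absent counts. For *Igfbp5* the nearest were *Nrep* (0.693 and 0.768), *Gprc5c* (0.660 and 0.790) and *Tet1* (0.618 and 0.652), the lowest coefficients beside those of *Igf1r*.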
